A study of Sus scrofa domesticus and Sus scrofa with 18 samples.

Results

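Weaned spleen was compared with adult spleen in 6 of the 18 RNA-seq libraries of the series. These were the 3 libraries of Rongchang pigs labelled weaned and 30 days (W30d) and the 3 libraries of Rongchang pigs 2 years old (A2Y). They were grouped by their stage labels and read from both the protein-coding table and the table of long non-coding RNAs (lncRNAs). All 6 animals were healthy females of this domestic breed, no treatment was given, and each library came from the spleen of 1 pig. Accounts of the younger age differ within the study. Its methods give 30 days of weaning, its abstract lists 30 days after birth, and its results place these pigs in the suckling period. The age of W30d is therefore not settled here, and weaned is used as its label. The other 12 libraries, with 3 each from fetuses (E55d, 55 days before birth), newborns (B0d), pigs 180 days old (A180d) and female Wild Boars 2 years old (WB), were used to estimate the spread between libraries and to give levels at other stages. Values are log2(FPKM+1), where FPKM is fragments scaled to transcript length and sequencing depth, so that levels of different genes can be set side by side per length.

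The spleen filters blood and hosts immune responses. In the red pulp, macrophages take up aged red blood cells and return their iron to the circulation, and in young animals the same compartment can make red blood cells, platelets and granulocytes. The white pulp holds B and T lymphocytes, and the capsule and its inward strands (trabeculae) hold smooth muscle, collagen and elastic fibres that let the organ swell and contract. In bulk tissue, fewer cells of a type and less RNA per cell cannot be told apart, and this holds for every group of genes described here.

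The W30d group was not uniform. Over protein-coding genes, W30d library 2 had a mean Pearson correlation of 0.938 with the other W30d libraries and 0.961 with the 3 A2Y libraries, whereas W30d libraries 1 and 3 correlated with each other at 0.983 and had means of 0.899 and 0.910 with A2Y. Over lncRNAs the corresponding means of W30d library 2 were 0.810 and 0.851. The A2Y libraries correlated with each other at 0.972 to 0.975 (protein-coding genes). Values without W30d library 2 are therefore set beside the main results. Markers of the labelled tissue were present. The red pulp macrophage factor SPIC had levels of 6.92 to 8.13 and the B cell gene MS4A1 levels of 4.59 to 6.08 over the 6 libraries. Of the genes of neighbouring pancreas, liver and fat, 2 of the 10 listed were measured, with APOA1 at 4.73 to 5.63 and ALB at 0.0173 to 3.22. Every A2Y library was sequenced to a greater amount of data than every W30d library, so that stage and amount of data cannot be told apart. The single most abundant identifier, ENSSSCG00000018700, held 41.1 to 53.6% of all protein-coding FPKM in these 6 libraries. Its mean level was 18.80 at W30d, 18.76 at A2Y and 18.56 at B0d, but 6.50 at A180d. Its levels in single A180d libraries were not examined. The effect of this identifier on the values of other genes, also in the comparisons with A180d below, was not tested.

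Of 12913 protein-coding genes, 1838 (14.2%) differed between W30d and A2Y at an adjusted p of at most 0.05 (limma, a linear model with shared variance estimates, over the 18 libraries, Benjamini-Hochberg adjustment). At A2Y, 1054 genes (8.16%) were higher and 784 (6.07%) were lower. The falls were larger than the rises. A falling gene changed by a median of 1.12 on the log2 scale and 145 fell by at least 2, whereas the median rise was 0.71 and 36 rose by at least 2. Over all genes the median change was 0.10, and the groups did not overlap for 31.4% of them. When the libraries were scaled to a common median ratio of protein-coding genes, the median change became 0.028 and the split of calls turned from 57.3% to 41.5% higher, with 813 genes higher and 1145 lower. The balance of rises and falls thus moved with the scaling.

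Without W30d library 2, 3069 genes (23.8%) were called, 1758 higher and 1311 lower, and 1759 of the 1838 genes were among them. Without W30d library 1 or 3, the counts were 696 and 650, and without A2Y library 1, 2 or 3 they were 1164, 1257 and 1049. Among the 784 falling genes, W30d library 2 had the lowest level of the W30d group for 719 (91.7%), a position it held in 34.9% of all genes. Among the 1054 rising genes it had the highest level of the W30d group for 706 (67.0%), against 45.6% of all genes. W30d library 2 was thus often the weaned library nearest to A2Y in called genes of both directions.

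**Figure D1:**
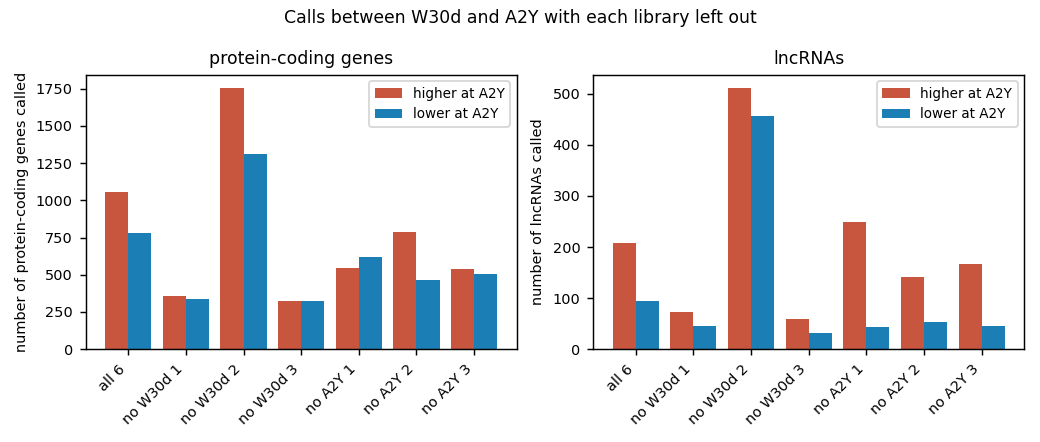
Number of protein-coding genes (left) and lncRNAs (right) called between W30d and A2Y at an adjusted p of at most 0.05, with bars for those higher and lower at A2Y, when all 6 libraries or all but 1 were used. The bars are tallest without W30d library 2 (3069 protein-coding genes and 969 lncRNAs in all).

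Nearly all genes of cell division fell. Of 26 listed genes of cell division and DNA replication, 17 were measured, of which 16 fell and 0 rose, beside 6.07% of all protein-coding genes that fell. The exception, MCM5, had a change of -0.70 (adjusted p = 0.069). Their median change was -1.80, against 0.10 over all genes, and the groups did not overlap for 16 of the 17, where 10.1% of all genes were lower at A2Y without overlap. In W30d libraries 1, 2 and 3 the mean level of the list was 4.43, 3.06 and 4.10, and in A2Y libraries 1, 2 and 3 it was 2.42, 1.89 and 1.62 (values of each group are given in this order throughout). W30d library 2 lay between the other W30d libraries and the A2Y libraries. Without it, all 17 genes fell with a median of -2.12, beside 10.2% of all genes that then fell, and under each of the other settings tried 15 to 17 fell.

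CDK1 (ENSSSCG00000010214), the kinase that drives entry into mitosis, had levels of 6.95, 4.94 and 6.79 at W30d and 4.0, 3.04 and 2.85 at A2Y. All W30d libraries lay above all A2Y libraries, and CDK1 fell by 2.93 (SE 0.48, adjusted p = 0.0014 in limma), or by 3.57 without W30d library 2. CENPF, a kinetochore protein, had levels of 5.62, 3.36 and 5.22 at W30d and 2.49, 1.80 and 1.54 at A2Y, again without overlap, and fell by 2.79 (SE 0.46, adjusted p = 0.0013), or by 3.47 without W30d library 2. TPX2, which organises spindle microtubules, went from 5.55, 3.67 and 5.17 to 2.83, 2.18 and 2.10 and fell by 2.42 (SE 0.39, adjusted p = 0.0012), or by 2.99 without that library. The mitotic kinase PLK1 was low in both groups, with levels of 2.23, 1.55 and 1.98 at W30d and 0.79, 0.74 and 0.48 at A2Y, and fell by 1.25 (adjusted p = 0.00093). The replicative helicase subunits moved in the same direction. MCM4 went from 4.30, 3.39 and 3.83 to 2.66, 2.27 and 2.08 and fell by 1.5 (SE 0.21, adjusted p = 0.00069), and MCM3 fell by 1.78. DLGAP5, a spindle protein outside the list, was among the 12 largest falls with a symbol, at 5.76, 3.81 and 5.64 against 3.11, 2.05 and 1.69. The linker histone H1-3, also among them, went from 10.57, 8.85 and 9.98 to 7.71, 6.25 and 6.50. For these genes too, W30d library 2 was the lowest weaned library and still lay above every A2Y library.

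Red blood cell genes were high in 2 of the 3 weaned pigs. Of 14 listed erythroid genes 6 were measured, and 5 of them fell, beside 6.07% of all genes. Their levels in W30d library 2 were within or close to the A2Y range, so the groups overlapped for each of the 5. SLC4A1 (ENSSSCG00000017358), the anion exchanger of the red cell membrane, had levels of 7.57, 0.86 and 7.21 at W30d and 0.36, 0.25 and 0.91 at A2Y. The fitted change was -4.71 (SE 1.12, adjusted p = 0.012), and it was -6.88 without W30d library 2. RHAG, a membrane protein of the Rh complex, showed the same arrangement, with 6.84, 0.61 and 6.33 against 0.46, 0.27 and 0.79. EPB42, which links the red cell membrane to its skeleton, had 6.71, 0.82 and 6.18 against 0.55, 0.17 and 0.86. TRIM10, a protein of maturing red cells, had 5.68, 0.30 and 5.43 against 0.16, 0.0368 and 0.44. The globin chain HBM, named after its values were seen, had 11.67, 5.39 and 11.35 against 5.54, 2.16 and 5.80. In each of these genes W30d libraries 1 and 3 stood apart from all 4 other libraries. When W30d library 1 or 3 was left out, 0 of the 6 erythroid genes were called (limma, 5 at an unadjusted p of at most 0.05 each time), so the erythroid calls rest on those libraries. HBB, the adult beta globin chain, was listed at 0 in W30d libraries 1 and 3 and at 11.06 in W30d library 2, against 10.91, 7.38 and 11.39 at A2Y. A 0 in a table of FPKM can be a failed estimate, and no fold is given for HBB. Without W30d library 2, HBB was called higher at A2Y (limma, adjusted p = 0.016), against the direction of the 5 falling genes. That call rests on the values of 0 in W30d libraries 1 and 3.

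Several of the largest falls outside the list had this pattern. RHCE, an Rh blood group protein, had levels of 7.86, 0.64 and 7.19 at W30d and 0.55, 0.048 and 0.58 at A2Y, with a change of -4.84 (SE 1.18, adjusted p = 0.014). NFE2, a transcription factor of red cell and platelet precursors, had 5.88, 1.97 and 5.41 against 1.44, 1.29 and 0.84, and TMCC2 had 7.09, 1.78 and 6.61 against 0.92, 0.62 and 1.53. SPINK4, a member of a protease inhibitor family, had 7.24, 1.77 and 6.63 against 1.74, 0 and 1.07. W30d library 2 exceeded the highest A2Y library in these 4 genes by less than W30d libraries 1 and 3 did. The calls of RHCE, TMCC2 and SPINK4 were lost without W30d library 1 or 3 (highest adjusted p over all settings 0.12, 0.088 and 0.090).

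Platelet genes differed from red cell genes in that they were high in all 3 weaned pigs. Both measured members of the list of 6 megakaryocyte and platelet genes fell, beside 6.07% of all genes. GP1BB (ENSSSCG00000030732), a subunit of the platelet receptor for von Willebrand factor, had levels of 5.54, 4.32 and 5.97 at W30d and 0.57, 1.01 and 0.86 at A2Y and fell by 4.46 (SE 0.51, adjusted p = 0.00016). TUBB1, the tubulin of platelets, went from 2.98, 3.14 and 4.09 to 1.51, 1.20 and 1.27 and fell by 2.08 (SE 0.35, adjusted p = 0.0014). The groups did not overlap for either gene, with or without W30d library 2, and both calls held under each of the settings tried.

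Among 3 measured granulocyte genes of 8 listed, 1 fell, beside 6.07% of all genes. LTF, the iron-binding lactoferrin of neutrophil granules, had levels of 4.29, 1.02 and 4.21 at W30d and 0.20, 0.78 and 0.21 at A2Y (change -2.78, SE 0.68, adjusted p = 0.014). S100A8, the small subunit of calprotectin, had 7.17, 4.36 and 7.16 against 3.94, 4.34 and 3.20 and did not pass (adjusted p = 0.072). The receptor CSF3R had a change of -0.18 (adjusted p = 0.78). EPX, the peroxidase of eosinophils and outside the list, went from 4.80, 2.40 and 5.12 to 0.66, 2.33 and 0.30 and fell by 3.01 (SE 0.56, adjusted p = 0.0024). W30d library 2 was the low weaned library for LTF, S100A8 and EPX, at or near the highest A2Y level. Without it, 2 of the 3 listed genes fell, and without W30d library 1 or 3 the call of LTF was lost (highest adjusted p over all settings 0.087).

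Iron genes moved in both directions. Of 12 listed genes of iron and haem handling 6 were measured, and 2 fell and 1 rose, beside 6.07 and 8.16% of all genes. TFRC (ENSSSCG00000011848), the transferrin receptor that red cell precursors use to take up iron, had levels of 8.35, 4.28 and 7.75 at W30d and 3.81, 3.07 and 3.45 at A2Y and fell by 3.35 (SE 0.67, adjusted p = 0.0042). CP, the copper oxidase ceruloplasmin that helps load iron onto transferrin, had 3.14, 2.48 and 3.08 against 1.36, 1.01 and 1.23 and fell by 1.70 (SE 0.44, adjusted p = 0.019). All 3 weaned libraries lay above all A2Y libraries for both genes. The call of CP was lost in 5 of 15 other settings (highest adjusted p 0.082) and that of TFRC in 1 (0.076), and without W30d library 2 the changes were -1.91 and -4.61. FTL, the light chain of the iron store ferritin, was among the most abundant genes named here, with 11.50, 11.11 and 11.42 against 12.01, 11.92 and 12.09, and rose by 0.66 (adjusted p = 0.046), a call that 11 of 15 other settings did not keep. BLVRB, a haem breakdown enzyme also found in red cells, followed the red cell pattern with 6.81, 3.71 and 6.56 against 4.33, 4.05 and 5.41 (adjusted p = 0.21). Its change was -1.10 with W30d library 2 and -2.09 without it.

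**Figure D2:**
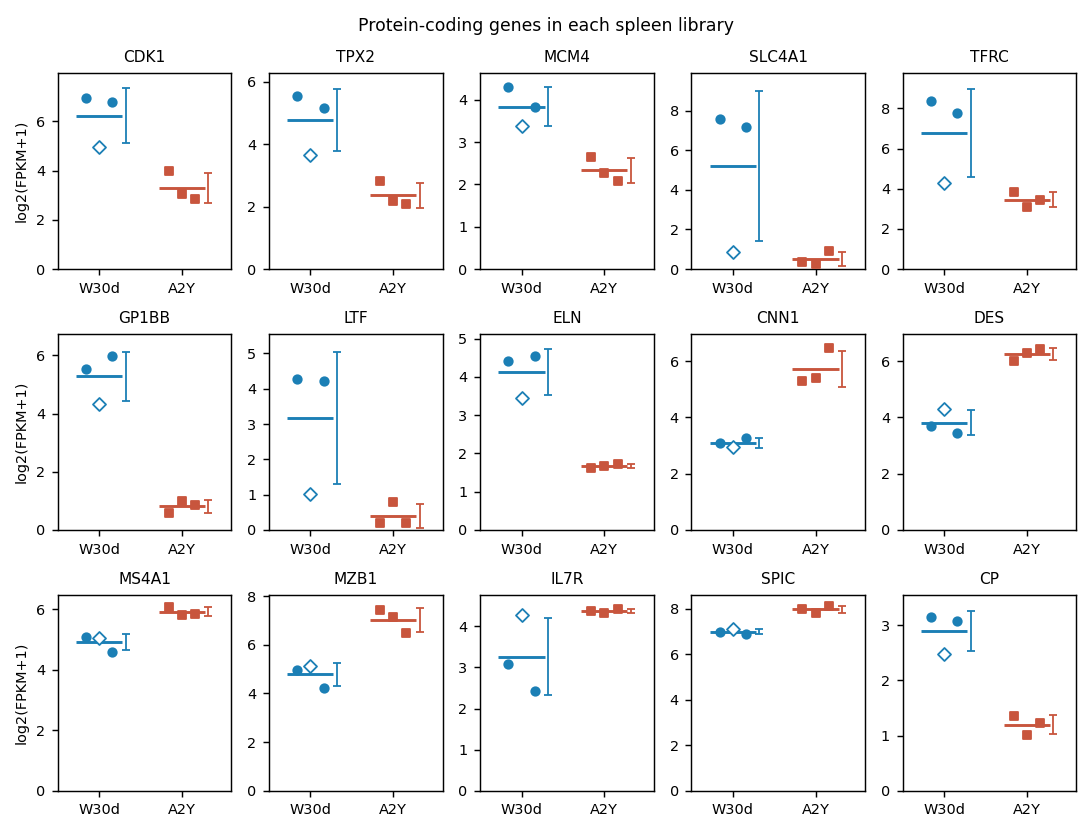
Level of 15 protein-coding genes, log2(FPKM+1), in each W30d library (blue, with library 2 as an open diamond) and each A2Y library (red squares), with the mean (line) and SD (bar, n = 3). CDK1, TPX2, GP1BB and ELN are low in all A2Y libraries, SLC4A1 is high only in W30d libraries 1 and 3 (7.57 and 7.21), and CNN1 and DES are high in all A2Y libraries.

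Most smooth muscle genes rose. Of 7 listed smooth muscle genes 6 were measured, and 5 rose, beside 8.16% of all protein-coding genes that rose. The list mean was 5.30, 5.37 and 5.28 at W30d and 6.67, 6.74 and 7.35 at A2Y. Here W30d library 2 lay with the other weaned libraries, and the median change was 1.69 with it and 1.73 without it. CNN1 (ENSSSCG00000013614), the actin-binding protein calponin, had levels of 3.09, 2.93 and 3.26 at W30d and 5.30, 5.40 and 6.45 at A2Y and rose by 2.63 (SE 0.33, adjusted p = 0.00030). DES, the intermediate filament desmin, went from 3.69, 4.31 and 3.44 to 6.01, 6.30 and 6.45 and rose by 2.44 (SE 0.28, adjusted p = 0.00017). MYH11, the smooth muscle myosin heavy chain, went from 4.12, 4.45 and 4.16 to 6.07, 6.52 and 7.0 and rose by 2.28 (SE 0.29, adjusted p = 0.00037). These 3 changes were 2.55, 2.69 and 2.39 without W30d library 2. TPM2, a tropomyosin, and TAGLN, transgelin, rose by 1.09 and 0.94. ACTA2, the smooth muscle actin, was the most abundant member at W30d after TAGLN and had 7.45, 7.16 and 7.47 against 7.34, 7.48 and 8.01, a change of 0.25 that did not pass (adjusted p = 0.55). No W30d library reached any A2Y library in the 5 rising genes, as in 21.3% of all genes, and 4 or 5 genes of the list rose under every setting tried. PGM5, a protein of muscle adhesion sites, and ACTC1, an actin best known from heart muscle, were among the 12 largest rises with a symbol. PGM5 went from 2.43, 2.82 and 2.40 to 4.92, 5.02 and 5.93 and ACTC1 from 1.33, 0.88 and 1.71 to 3.16, 3.78 and 3.82.

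Among 11 measured of 13 listed collagen and matrix genes, 3 fell, beside 6.07% of all genes, and 0 rose. ELN (ENSSSCG00000025858), the elastic fibre protein elastin, had levels of 4.41, 3.45 and 4.54 at W30d and 1.63, 1.68 and 1.73 at A2Y and fell by 2.45 (SE 0.25, adjusted p = 6.1e-05), or by 2.79 without W30d library 2. FBN1, the microfibril protein fibrillin, fell by 0.64 (SE 0.17, adjusted p = 0.023), from 3.69, 3.29 and 3.62 to 2.76, 3.08 and 2.83. COL3A1, a fibrillar collagen of soft organs, went from 7.6, 6.64 and 7.22 to 6.09, 6.11 and 5.93 and fell by 1.11 (SE 0.25, adjusted p = 0.0087). The groups did not overlap for these 3 genes, where 10.1% of all genes were lower without overlap. The remaining 8 genes did not pass and had changes between -0.65 and 0.21, with COL1A2 at 5.48, 4.45 and 4.83 against 4.20, 4.52 and 4.10 (adjusted p = 0.11). Without W30d library 2, 5 genes of the list fell, and without W30d library 1 only ELN did.

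Of 7 measured B cell genes of 10 listed, 3 rose and 0 fell, beside 8.16% of all genes that rose. MS4A1, the B cell surface protein CD20, had levels of 5.08, 5.04 and 4.59 at W30d and 6.08, 5.80 and 5.85 at A2Y and rose by 1.01 (SE 0.19, adjusted p = 0.0029). The B cell kinase BLK rose by 0.53 (adjusted p = 0.013). CD79B, a subunit of the B cell receptor, had 5.47, 5.26 and 4.61 against 6.38, 5.47 and 5.49 and did not pass (adjusted p = 0.094). W30d library 2 lay within the range of the other weaned libraries for MS4A1 and CD79B. The number of called B cell genes was 4 without W30d library 2 (13.6% of all genes then rose) and between 1 and 7 over all settings, and MS4A1 was called in each of them.

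Both MZB1 and XBP1 passed among 4 measured of 7 listed genes, beside 8.16% of all genes that rose. MZB1 (ENSSSCG00000029239), an endoplasmic reticulum protein of antibody-secreting cells, had levels of 4.98, 5.15 and 4.24 at W30d and 7.44, 7.13 and 6.49 at A2Y and rose by 2.23 (SE 0.33, adjusted p = 0.00088). XBP1, the transcription factor of the secretory programme, went from 6.02, 5.96 and 5.71 to 7.41, 7.09 and 7.30 and rose by 1.37 (SE 0.26, adjusted p = 0.0031). PRDM1, a regulator of plasma cell fate, was below 0.83 in all 6 libraries and SDC1, a surface protein of plasma and epithelial cells, lay between 0.88 and 2.09. Their changes of 0.29 and 0.36 did not pass. The groups did not overlap for MZB1 and XBP1, whose changes were 2.41 and 1.40 without W30d library 2, and both calls held under each of the settings tried.

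Calls of T cell genes changed with the libraries used. Of 9 measured genes of 12 listed, 3 rose in the full comparison, beside 8.16% of all genes, and 7 without W30d library 2. Without any other single library of both stages, without the E55d libraries or with only the 6 libraries of W30d and A2Y in the model, 0 to 1 rose (limma, 3 to 6 at an unadjusted p of at most 0.05). IL7R, the interleukin-7 receptor that keeps naive and memory T cells alive, had levels of 3.09, 4.27 and 2.43 at W30d and 4.36, 4.32 and 4.43 at A2Y (change 1.11, SE 0.34, adjusted p = 0.039). CCR7, the homing receptor of naive T cells, had 3.08, 2.86 and 2.24 against 3.89, 3.35 and 3.32 (change 0.79, adjusted p = 0.037), and the co-receptor CD4 had 0.86, 1.85 and 0.78 against 2.0, 2.30 and 1.6 (change 0.80, adjusted p = 0.043). CD3D, a chain of the T cell receptor complex, had 4.66, 5.95 and 5.99 against 6.78, 5.90 and 6.39 and did not pass (adjusted p = 0.088). In IL7R and CD4, W30d library 2 was the highest weaned library and lay close to or within the A2Y range. With the scaling by median ratio 0 of the 9 genes were called (limma, 5 at an unadjusted p of at most 0.05), although 9 of 9 changes were above 0 in the full comparison. Cytotoxic genes had the same outlying library. The list mean of 4 measured genes of 8 was 2.19, 4.07 and 3.0 at W30d and 3.89, 3.01 and 2.81 at A2Y, so that W30d library 2 was the highest of all 6. None of NKG7, PRF1, GZMA and CST7 was called (limma, 0 of 4 at an unadjusted p of at most 0.05), and NKG7, a granule membrane protein, had 3.04, 4.83 and 3.53 against 4.38, 4.36 and 4.05. Without W30d library 2, 2 of the 4 rose.

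Among 7 measured macrophage genes of 12 listed, 3 rose, beside 8.16% of all genes, and 0 fell. SPIC had levels of 6.97, 7.12 and 6.92 at W30d and 8.01, 7.82 and 8.13 at A2Y and rose by 0.98 (SE 0.25, adjusted p = 0.017). The lysosomal protein CD68 went from 3.83, 4.58 and 3.80 to 4.63, 5.28 and 5.31 and rose by 1.00 (SE 0.28, adjusted p = 0.026), and the adhesion molecule VCAM1 rose by 0.70 (SE 0.21, adjusted p = 0.035). C1QA, a complement component made by macrophages, was near 10 in all 6 libraries, from 9.78 to 10.51. The median change of the list was 0.07, below that of all genes, so the list did not move as 1 group. The same 3 genes were called without W30d library 2. Without W30d library 1, W30d library 3 or A2Y library 3, 0 were called (limma, 3 at an unadjusted p of at most 0.05 each time). No gene passed among the 3 dendritic cell genes (0 at an unadjusted p of at most 0.05) or the 3 endothelial and littoral cell genes (1 at an unadjusted p of at most 0.05), where the growth factor receptor KDR had 3.41, 3.16 and 3.13 against 2.68, 2.83 and 2.64 (adjusted p = 0.056) and the endothelial adhesion molecule PECAM1 had a change of -0.021. Neither of the measured pancreas, liver and fat genes passed (0 of 2 at an unadjusted p of at most 0.05).

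Genes of innate responses gave few calls. None of 13 measured interferon-response genes of 16 listed was called (limma, 4 lower at an unadjusted p of at most 0.05), although 12 of the 13 changes were below 0 and 5 were lower at A2Y without overlap, beside 10.1% of all genes. The list mean was 3.28, 4.20 and 3.39 at W30d and 3.27, 3.13 and 3.11 at A2Y, and W30d library 2 alone stood high. Without that library 0 of the 13 were called (limma, 1 lower at an unadjusted p of at most 0.05). With the scaling by median ratio 2 of the 13 were called lower, beside 1145 of all 12913 genes. IFI44, an interferon-induced protein, had levels of 4.70, 5.33 and 4.64 against 4.24, 3.90 and 3.81 (adjusted p = 0.066), and DHX58, a regulator of RNA sensing, had 2.47, 3.67 and 2.54 against 2.35, 2.18 and 1.99 (adjusted p = 0.092). In the complement and inflammation list of 17 genes, of which 10 were measured, C2, a serine protease of the complement cascade, fell by 1.00 (adjusted p = 0.034) from 3.36, 4.55 and 4.17 to 2.97, 3.42 and 2.68, with overlapping groups and no call without W30d library 2, when its change was -0.74. The endotoxin receptor TLR4 (change 0.57, adjusted p = 0.0501, just above the limit) and C4A (change 0.83, adjusted p = 0.053) did not pass in the full comparison. Without W30d library 2, both were called higher (adjusted p = 0.031 and 0.0081 in limma), 2 of the 10 genes, beside 13.6% of all genes. The cytokines IL18, IL15 and IL10, which the study discusses together with IL7R and CP, had changes of 0.59, 0.12 and 0.19 with adjusted p of 0.31, 0.79 and 0.71 in limma. No antigen presentation gene passed among 3 measured of 10 listed (1 at an unadjusted p of at most 0.05), with HLA-DRA at 9.11, 10.28 and 9.41 against 10.25, 9.93 and 10.03. Without W30d library 2, HLA-DRA and CIITA were called higher (adjusted p = 0.0076 and 0.026 in limma), 2 of the 3 genes, beside 13.6% of all genes. None of 8 measured immediate early and heat shock genes passed with or without W30d library 2 (0 at an unadjusted p of at most 0.05 each time). These genes respond to handling of tissue, and the list mean was 3.88, 3.54 and 3.73 at W30d and 3.77, 3.84 and 3.58 at A2Y.

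**Figure D3:**
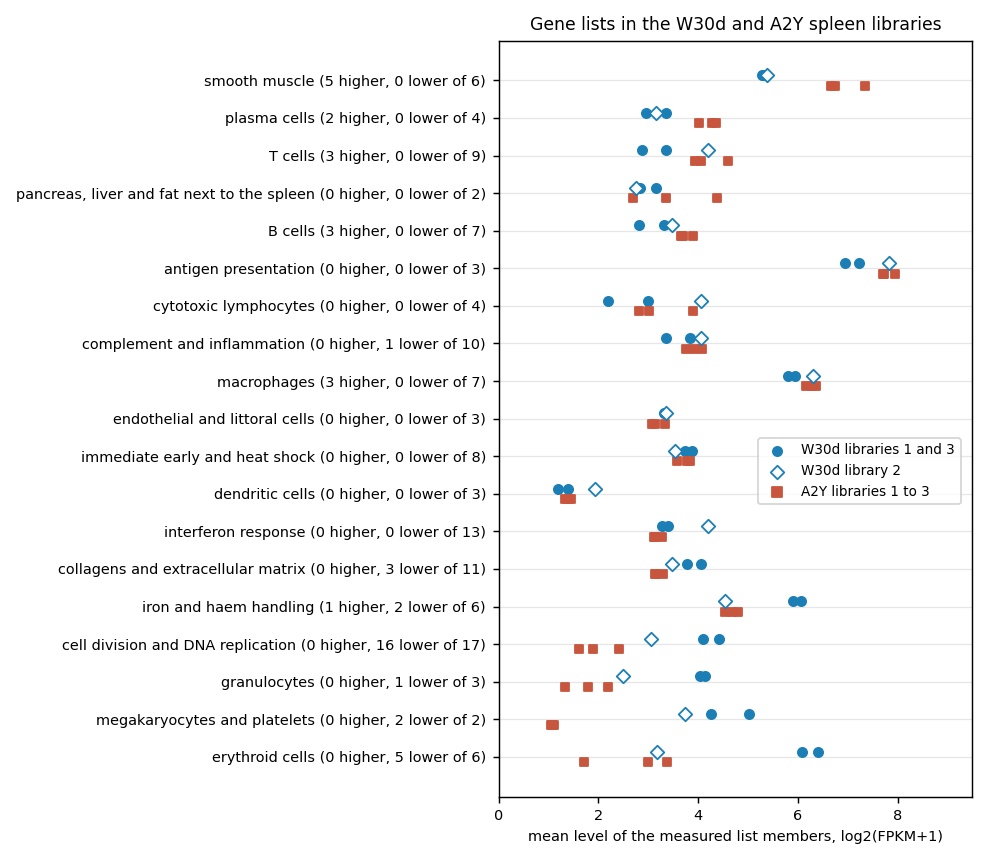
Mean level, log2(FPKM+1), of the measured members of 19 gene lists in each W30d library (blue, library 2 as an open diamond) and each A2Y library (red squares), ordered by the median change, with the number of members called higher and lower at A2Y. W30d library 2 lies with A2Y for erythroid and iron genes, with W30d for smooth muscle and platelet genes, and above all others for interferon and cytotoxic genes (4.20 and 4.07).

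Further large rises fell outside the lists. RARRES1, a retinoic acid-induced membrane protein, had levels of 3.48, 3.61 and 3.02 at W30d and 5.44, 5.15 and 5.49 at A2Y and rose by 1.99 (SE 0.24, adjusted p = 0.00026). NQO1, a quinone reductase of the antioxidant response, rose by 1.84 (SE 0.22, adjusted p = 0.00017), and BST1, a surface enzyme that converts NAD, rose by 1.85 (SE 0.20, adjusted p = 0.00012) from 0.50, 0.62 and 0.14 to 2.69, 2.11 and 2.00. The calls of these 3 genes held under each of the settings tried. The tight junction protein CLDN10 and the chemokine CXCL14 rose by 2.32 (SE 0.66, adjusted p = 0.028) and 2.16 (SE 0.62, adjusted p = 0.029), with a wide spread between libraries. CLDN10 had 0.98, 0.98 and 2.21 against 3.49, 3.07 and 4.58, and CXCL14 had 0.87, 1.47 and 0.46 against 3.70, 2.87 and 2.72. Their calls were lost in 5 and 6 of 15 other settings (highest adjusted p 0.12 for both), those without A2Y library 1 or 3 among them. AARD rose by 2.30 (SE 0.52, adjusted p = 0.0093). SNORA53, a small nucleolar RNA that stands in the table of protein-coding genes under its identifier, had the highest level among the 12 largest falls, at 10.97, 11.14 and 11.27 against 9.05, 8.60 and 6.70.

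LncRNAs, which are named here by the numbers of their assembly, gave fewer calls. Of 14129 lncRNAs tested 303 (2.14%) differed, 208 (1.47%) higher and 95 (0.672%) lower at A2Y, and the median change over all lncRNAs was 0.07. With each library scaled by the median ratio of its own lncRNAs, 57 of 125 calls (45.6%) were higher, against 68.6% in the deposited values. As with protein-coding genes, the falls were larger, with a median size of 0.98 and 14 falls of at least 2, whereas the median rise was 0.69 and 0 rises reached 2 on the log2 scale. Without W30d library 2, 969 lncRNAs (6.86%) were called, 512 higher and 457 lower, and 294 of the 303 were among them. Without W30d library 1 or 3 the counts were 117 and 91. With only the 6 libraries of both stages in the model, 0 lncRNAs were called, with 1611 at an unadjusted p of at most 0.05. Among the 95 falling lncRNAs, W30d library 2 was the lowest weaned library for 72 (75.8%), against 21.9% of all lncRNAs. Among the 208 rising lncRNAs it was the highest weaned library for 101 (48.6%), below the 54.1% of all lncRNAs.

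The 8 largest falls were of 2 kinds. In the first kind, all 3 weaned pigs were high. TU69026 was the largest fall among the 3 most abundant lncRNAs, at 10.07, 10.03 and 10.58 in the W30d libraries and 7.71, 6.86 and 8.48 in the A2Y libraries, and fell by 2.55 (SE 0.26, adjusted p = 9.9e-05). TU69026 was low only at A2Y, with means of 9.61 at E55d, 9.03 at B0d, 9.80 at A180d and 9.998 in WB. It was higher at A180d and in WB than at B0d (changes 0.77 and 0.97, adjusted p = 0.023 and 0.0070 in limma). The others of the 8 were lower in both groups than at B0d. TU78772 was even within the weaned group, with 3.27, 3.23 and 3.37 against 1.41, 0.84 and 0.59, and fell by 2.34 (SE 0.22, adjusted p = 2.9e-05). TU79421 went from 5.24, 4.40 and 5.91 to 1.47, 1.96 and 1.41 and fell by 3.57 (SE 0.54, adjusted p = 0.0024), and TU79419 fell by 2.22. In the second kind, W30d library 2 was low. TU18965 had 7.83, 3.67 and 7.31 against 2.58, 2.75 and 2.60, a change of -3.63 (SE 0.65, adjusted p = 0.0069) that became -4.93 without W30d library 2. TU73751 had 3.59, 0.76 and 3.58 against 0.28, 0.42 and 0.24, and TU27783 and TU9999 were arranged in the same way. The calls of TU73751 and TU9999 were lost with the replicate number as a block and without W30d library 1 or 3, and that of TU73751 also without A2Y library 3. The groups did not overlap for any of the 8, as the rule for naming them required. The other 2 of the 3 most abundant lncRNAs, TU47080 and TU80113, fell by 0.99 and 1.05 (adjusted p = 0.013 and 0.0051 in limma). The call of TU47080 was lost in 5 of 16 other settings (highest adjusted p 0.36) and that of TU80113 in 1 (0.26).

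Among the 8 largest rises, TU61974 had levels of 0.34, 0.47 and 0.29 at W30d and 1.33, 2.32 and 3.43 at A2Y and rose by 1.99 (SE 0.32, adjusted p = 0.0031). Its means in the other groups were 0.090 at E55d, 0.39 at B0d, 0.39 at A180d and 0.50 in WB. TU29937 rose by 1.78 (SE 0.26, adjusted p = 0.0016), from 0.21, 0.65 and 0.12 to 2.03, 2.19 and 2.09, and its mean was 0.76 at A180d. TU29925 was at 0 in W30d libraries 2 and 3, at 0.34 in library 1, and at 2.00, 1.39 and 1.73 at A2Y. TU81129 went from 2.18, 2.66 and 1.74 to 3.61, 3.91 and 3.87 and rose by 1.6 (SE 0.23, adjusted p = 0.0016). The most abundant of the 8 was TU198, which spans chr1:6564871-6565214 (344 bases) in Sscrofa10.2. It had 2.41, 3.60 and 2.43 at W30d and 4.87, 4.07 and 5.02 at A2Y and rose by 1.84 (SE 0.37, adjusted p = 0.013). Its call was lost with the replicate block and without W30d library 1, W30d library 3 or A2Y library 3. The others of the 8, TU75189, TU60766 and TU70980, rose by 1.71, 1.57 and 1.56 (adjusted p = 0.0059, 0.025 and 0.0051 in limma). The call of TU60766 was lost in 8 of 16 other settings, with either scaling and with the replicate block among them. Those of TU75189 and TU70980 were lost in 2 each. TU78568, which the study discusses, had 3.92, 5.01 and 3.64 against 5.62, 5.96 and 5.60, rose by 1.53 (SE 0.31, adjusted p = 0.015) and was not called without W30d library 1, W30d library 3 or A2Y library 2. TU39066, on chr2:92358367-92370222 of the same build, had 1.16, 0.74 and 1.09 against 0.44, 0.59 and 0.38 and just missed the limit (change -0.52, adjusted p = 0.051). All 20 named lncRNAs other than TU39066 passed in the full comparison, and none passed with only the 6 libraries in the model.

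**Figure D4:**
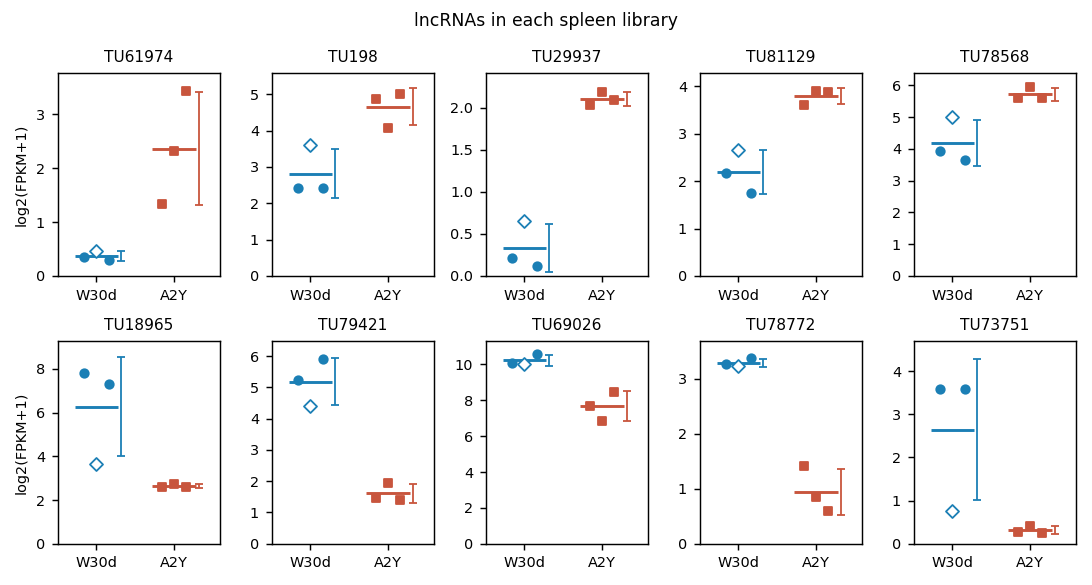
Level of 10 lncRNAs, log2(FPKM+1), in each W30d library (blue, with library 2 as an open diamond) and each A2Y library (red squares), with the mean (line) and SD (bar, n = 3). TU78772 and TU69026 are even within W30d, whereas TU18965 and TU73751 are low in W30d library 2 (3.67 and 0.76).

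More lncRNAs were detected at A2Y. The number with FPKM above 0 was 12525, 12245 and 12447 at W30d and 12905, 13359 and 13110 at A2Y, a difference of 719 between means of 12406 ± 145 and 13125 ± 227 (SD, n = 3 each, two-sided exact permutation test, p = 0.1, which no 3 against 3 design can go below). The difference was 639 without W30d library 2. The counts did not overlap. Above an FPKM of 0.1 they did, with 11053 to 11228 at W30d and 11072 to 12234 at A2Y (difference 632, exact permutation p = 0.2). Only 37 lncRNAs were found in all W30d libraries and in no A2Y library, and 169 were found in all A2Y libraries and in no W30d library. Of the 169, 121 were found in at least 1 A180d library and 133 in at least 1 WB library. At the younger stages, 104 of the 169 were found in at least 1 B0d library and 99 in at least 1 E55d library. These lncRNAs were low, with median FPKM of 0.37 (W30d) and 0.22 (A2Y) where they were found, and the part of the amount of data per library in both counts was not tested.

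The 180-day pigs, which lie between the stages in age, were nearer to the adults for falling genes. This also held for most of all genes with a lower mean at A2Y. Of the 784 falling protein-coding genes, the A180d mean lay between those of W30d and A2Y for 524 (66.8%) and beyond A2Y for 250 (31.9%), and 437 of the 524 were nearer to A2Y. Of the 1054 rising genes, 678 (64.3%) had an A180d mean between the stages, of which 346 were nearer to A2Y, and 125 (11.9%) lay beyond W30d. Over all genes, the share between the stages was 29.0% of those with a lower mean at A2Y and 30.2% of those with a higher mean. Of the former 48.9% lay beyond A2Y, and of the latter 33.0% lay beyond W30d. Among all genes with an A180d mean between the stages, 948 of 1424 with a lower mean at A2Y were nearer to A2Y. For those with a higher mean it was 1269 of 2414. Called features, here and below, were selected for a gap between W30d and A2Y, which leaves more room for a mean in between. The shares over all features were not matched for the size of that gap, so the contrast with them shows no intermediate state. The gene lists differed in this respect. The mean of the cell division list was 2.56 ± 0.31 (SD, n = 3) at A180d and so close to A2Y library 1, and that of the erythroid list 3.15 ± 0.27. At B0d the cell division mean was 3.22 ± 0.46, below W30d libraries 1 and 3. Of its 17 measured genes, 4 were lower at A180d than at B0d, beside 20% of all genes. In WB 16 were lower than at B0d, beside 15.3% of all. The smooth muscle list stood at 6.25 ± 0.24 at A180d, below every A2Y library, and reached 7.93 ± 0.35 in WB. Its B0d mean was 5.91 ± 0.47, above every W30d library. Of its 6 measured genes, 1 was higher at A180d than at B0d, beside 19.9% of all genes. In WB 5 were higher than at B0d, beside 24.3% of all. MZB1 was highest at A180d, with a mean of 8.32, and lower in WB at 6.54. Rising lncRNAs lay beyond W30d at A180d in 56 of 208 cases (26.9%), and 139 (66.8%) lay between the stages, of which 37 were nearer to A2Y. Of all lncRNAs with a higher mean at A2Y, 70.0% lay beyond W30d and 22.4% between. Of the 95 falling lncRNAs, 55 (57.9%) lay between the stages, of which 50 were nearer to A2Y, and 39 (41.1%) lay beyond A2Y. Of all lncRNAs with a lower mean at A2Y, 14.9% lay between and 79.6% beyond A2Y. Without W30d library 2, the A180d mean lay between the stages for 748 of 1311 falling genes (57.1%), of which 647 were nearer to A2Y, for 1028 of 1758 rising genes (58.5%) and for 362 of 512 rising lncRNAs (70.7%).

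The direction of the calls was examined in pigs whose levels did not enter the difference between W30d and A2Y. Their libraries did enter the estimate of spread behind the calls, so the shares below are not independent of the calling. Between B0d and A180d, 470 of the 1054 rising protein-coding genes (44.6%) were higher at A180d, against 19.9% of all genes, and 373 of the 784 falling genes (47.6%) were lower, against 20% of all. Between B0d and the Wild Boars, 639 (60.6%) of the rising genes were higher, against 24.3% of all, and 534 (68.1%) of the falling genes were lower, against 15.3%. Calls of the opposite direction were fewer, at 72 and 23 of the rising and 19 and 9 of the falling genes. With only the groups compared in the model of these contrasts, 40.4 and 48.8% of the rising genes were higher at A180d and in WB. The shares of all genes were then 17.7 and 15.7%. Of the falling genes 50.5 and 64.0% were lower, against 18.2 and 9.36% of all. Of the 208 rising lncRNAs, 44 (21.2%) were higher at A180d than at B0d and 59 (28.4%) were higher in WB, where 2.71 and 2.65% of all lncRNAs were. Of the 95 falling lncRNAs, 61 (64.2%) and 64 (67.4%) were lower, but lncRNAs were lower in general in both comparisons, at 43.6 and 40.5% of all. Among the calls made without W30d library 2, the shares in the same direction at A180d and in WB were 46.9 and 56.8% of rising genes, 42.8 and 52.3% of falling genes, 15.4 and 16.8% of rising lncRNAs and 53.2 and 54.7% of falling lncRNAs. B0d is younger than W30d, WB is another breed, and both comparisons use the same B0d libraries.

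**Figure D5:**
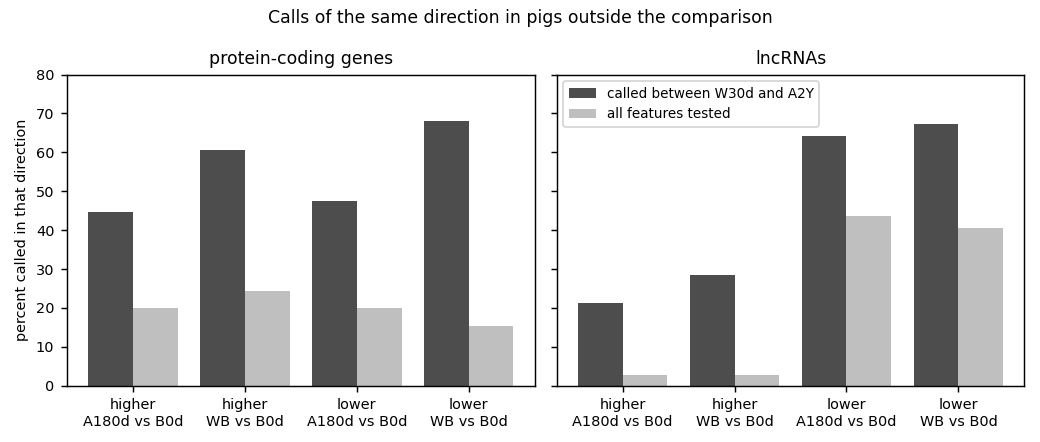
Share of the protein-coding genes (left) and lncRNAs (right) called between W30d and A2Y that were called in the same direction in pigs outside the comparison (dark bars), beside the share among all features tested (light bars), for A180d against B0d and WB against B0d. The dark bars lie between 44.6 and 68.1% for protein-coding genes, with light bars from 15.3 to 24.3%. The libraries of those pigs also entered the estimate of spread behind the calls.

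Co-expression modules that the study built on these same samples held calls in unequal shares. In module 2, 246 of 1811 protein-coding genes (13.6%) rose and 61 (3.37%) fell, with a median change of 0.20, whereas in module 1, 44 of 790 (5.57%) rose and 30 (3.80%) fell. Beside the 8.16 and 6.07% of all genes, module 2 was richer in rising and poorer in falling genes. Of its 545 lncRNAs, 14 (2.57%) rose and 6 (1.10%) fell, beside 1.47 and 0.672% of all lncRNAs. In module 2, 428 protein-coding genes (23.6%) rose and 97 (5.36%) fell without W30d library 2, beside 13.6 and 10.2% of all genes. The modules were chosen on these libraries and are not independent evidence of a direction, and the list of lncRNAs of module 1 was read in shortened form.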

How the data were processed

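The study extracted total RNA from spleen, made strand-specific paired-end libraries and mapped the reads with TopHat 2.0.11 to Sscrofa10.2 with replaced sex chromosomes. Transcripts were assembled and quantified with StringTie 1.3.3, and Cufflinks 2.2.1 served to remove known transcripts. The deposited values are on the log2 scale, log2(FPKM+1), and lncRNA cells without detection are empty. They are not read counts, so the count test of the study could not be used and no counting interval is given.

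Empty cells counted as FPKM 0. Testing required FPKM above 0.1 in 3 or more of the 18 libraries, a condition met by all 12913 protein-coding genes and by 14129 of 15040 lncRNAs. The contrast A2Y minus W30d was fitted with limma 3.58.1 (R 4.3.3, 6 groups without a block, mean-variance trend, Benjamini-Hochberg, adjusted p of at most 0.05), after tests on simulated data. A change on this scale understates that of low features. Tables and figures were made with Python 3.11.15, pandas 2.3.3, scipy 1.17.1 and matplotlib 3.10.9. Replicates are separate animals.

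Symbols came from a reference table that pairs 8215 of the 12913 identifiers with names and may follow a newer annotation release. Of 211 listed symbols 124 were measured. Genes of near-identical families, such as globins and histones, may share reads. Named were the 12 largest rises and falls with a symbol, an adjusted p of at most 0.05 and no overlap, up to 4 members of each of the 19 lists with the smallest p, the genes the study discusses (5 of 7 measured), the 8 largest rises and falls and the 3 most abundant lncRNAs, TU78568 and TU39066. The other list members HBM, HBB, TAGLN, ACTA2, C1QA, MCM5 and the identifier ENSSSCG00000018700 were added after their values were seen. The groups, lists and rules were chosen with earlier results of these data known. Sequences, and positions of other lncRNAs, were not analysed here. The values of 1 gene that the rule names are not reported here.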

Additional observations from a re-analysis of the deposited data

How the results depend on the processing

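The number of protein-coding genes called was 737 with only the 6 libraries of W30d and A2Y in the model, 5459 with limma's array weights, which gave W30d library 2 the smallest weight of these 6, and 650 to 3069 when each library was left out in turn. For lncRNAs it was 155 with FPKM above 1 required, 184 when scaled by protein-coding genes, 125 when scaled by lncRNAs, 0 with only the 6 libraries (1611 at an unadjusted p of at most 0.05), 1170 with array weights and 91 to 969 with a library left out. The cause of these differences was not tested. The counts without W30d library 2 for lists, modules and the other pigs were chosen after seeing the data. Where 1 library was left out, the remaining pair was assumed to vary like the other groups. The median change moved to 0.028 (protein-coding genes, scaled) and 0.21 (lncRNAs, pseudocount of 0.1), and 74 lncRNAs were seen at W30d alone above an FPKM of 0.1.

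With the replicate number as a block, in a model of 15 libraries because the E55d columns carry no usable number, 1081 protein-coding genes and 108 lncRNAs were called. The same 15 libraries without the block, a setting chosen after seeing the data, gave 1256 and 199. Deviations of same-numbered W30d and A2Y libraries correlated at 0.083, 0.13 and 0.10 over protein-coding genes and at 0.077, 0.14 and 0.093 over lncRNAs. Not every pair was above 0.1, so the numbers were not taken to pair the animals, although each W30d library correlated best with its own number.

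Over the named features, 24 of the alternative values changed sign, each for a gene that was not called. With a library left out the changes ranged from -0.20 to 0.83 for CST7, -0.47 to 0.23 for CSF3R, -0.59 to 0.21 for XCR1, -0.19 to 0.046 for FLT3, -0.092 to 0.059 for CD1E, -0.11 to 0.24 for LYVE1, -0.062 to 0.055 for PECAM1, -0.22 to 1.38 for ALB, -0.74 to 0.036 for HSPH1, -0.087 to 0.40 for IL15, -0.15 to 0.50 for IL10, -0.060 to 0.30 for C1QA and -0.33 to 0.11 for ENSSSCG00000018700. Array weights gave 0.058 for CSF3R, 0.087 for CD1E, -0.040 for ALB, -0.30 for IL15 and 0.18 for ENSSSCG00000018700, and the scaling gave -0.040 for C1QA. Of the other values 1541 kept direction and side of the threshold, 180 lost a call and 43 gained one. No read counts lie behind these values, and the effect of depth on the rare lncRNAs was not tested.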

Other observations

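Transcripts found at a single stage in these 6 libraries were also found elsewhere in the series. Of the 37 lncRNAs found in all W30d libraries and in no A2Y library, 34 were found in at least 1 newborn library and 32 in at least 1 fetal library, but 21 in the 180-day pigs and 18 in the Wild Boars. The most abundant of the 169 lncRNAs of the A2Y libraries, TU71738, had levels of 1.80, 1.61 and 1.76 at A2Y and 0 in each W30d library, and did not pass the test (adjusted p = 0.059 in limma).

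ENSSSCG00000020439, the identifier with the second highest mean FPKM, was listed at 0 in A2Y library 1 and at 17.01 and 16.68 in A2Y libraries 2 and 3, against 17.11, 17.15 and 16.96 at W30d. Its fitted change of -5.84 (SE 4.10, adjusted p = 0.36 in limma) did not pass. It was singled out after its values were seen, and a 0 in so abundant a transcript can be a failed estimate.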
